A study of Rattus norvegicus with 10 samples.

Results

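Amino acids filtered by the kidney are taken back by carriers of the proximal tubule, and this family of carriers was followed in PCK rats of both sexes. The members were the protein-coding genes of the deposited table whose symbol starts with Slc1a, Slc3a, Slc6a, Slc7a, Slc36a, Slc38a or Slc43a and a number. This rule took 62 of the 32545 genes. Of these, 61 encode carriers or their partner chains, and Slc7a6os matched by its symbol only and encodes no carrier. RNA-seq had been performed on renal cortex of PCK rats, 5 males and 5 females, with 1 library per rat. The PCK rat carries a mutation of Pkhd1 and is a model of autosomal recessive polycystic kidney disease (ARPKD). All 10 rats are PCK rats, so no group of rats without cysts enters a comparison. The series text gives an age of 12 to 14 weeks and the methods of the study an age of 10 to 12 weeks for the rats of both sexes. The methods describe littermates from 2 litters with different parents. The litter of each rat is not in the labels, so litter does not enter a test.

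Most amino acids cross the brush border of the early proximal tubule through sodium-coupled carriers and leave the cell through exchangers in the basolateral membrane. Several exchangers work as pairs, in which a heavy chain (Slc3a1 or Slc3a2) brings a light chain of the Slc7 family to the membrane. Mutations of Slc3a1 or Slc7a9 cause cystinuria, of Slc7a7 lysinuric protein intolerance, and of Slc6a19 Hartnup disorder. Levels are given as FPKM, fragments scaled by gene length and by a size for each library, so that genes of different length can be compared.

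Read depth was 13912569 to 20285911 reads on genes per library. In a principal component analysis of all genes, the first component (23.7%) separated the sexes, with males from -60.4 (male 5) to -21.1 and females from 6.67 to 64.7 (female 4), and female 2 (-79.3) lay at one end of the second (15.7%). Female 2 also had the highest share of mitochondrial reads (26.8%, against 14.3% to 19.1% in the others). The summed level of 8 proximal tubule markers was 4674 to 8743 FPKM in the males and 5742 to 10587 FPKM in the females, so these markers were present in each library. The summed level of 5 urothelial markers was 12.8 FPKM in female 2 and 0.200 to 0.763 FPKM in the other rats, and Upk3a was at 4.64 FPKM in female 2 and at 0 in the others. The summed level of 5 intercalated cell markers did not overlap between males (134 to 205 FPKM) and females (215 to 337 FPKM), and 1 of the 5, Atp6v0d2, passed the adjusted threshold, higher in females. So did 1 of 8 proximal tubule markers, Cubn (log2 fold change 0.72, limma adjusted p = 0.0467), and 1 of 5 principal cell markers, Avpr2 (0.44, limma adjusted p = 0.0469). Of all genes tested, 1.26% were called higher and 1.14% lower. In the other lists 0 markers passed. The median log2 fold change was 0.35 for the thick ascending limb, 0.42 for the distal convoluted tubule, 0.26 for podocytes and 0.03 for endothelium. It was -0.48 for leukocytes, -0.69 for fibroblasts and pericytes, and 1.135 for the urothelium. For the lists with a called marker it was 0.16 (proximal tubule), 0.37 (principal cells) and 0.58 (intercalated cells). The ranges of Col1a1 and Pdgfra, 2 of 4 fibroblast and pericyte markers, lay lower in females without overlap. Those of Atp6v1g3, Atp6v0d2, Avpr2 and Upk1a (on 1 to 51 reads) lay higher in females without overlap. Ranges did not overlap for 5.10% of all genes tested. The part of these cells in the levels of the carriers was not tested. In whole tissue, fewer cells of a type and less RNA per cell cannot be told apart.

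The family was dominated by a few genes. Slc3a1 alone made up 31.4% of the summed mean FPKM of all members, and the 3 highest members together 57.8%. A mean of at least 100 FPKM was found for 7 members, 10 to 100 FPKM for 13, 1 to 10 FPKM for 17, 0.1 to 1 FPKM for 7, and less than 0.1 FPKM for 18. The last 18 members did not pass the filter on low values and were not tested. Their highest value in any rat was 0.221 FPKM, in Slc36a2, and Slc7a14 and Slc6a14 had no read in any library. The plot of levels by sex shows the 20 members with a mean of at least 10 FPKM.

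**Figure D1:**
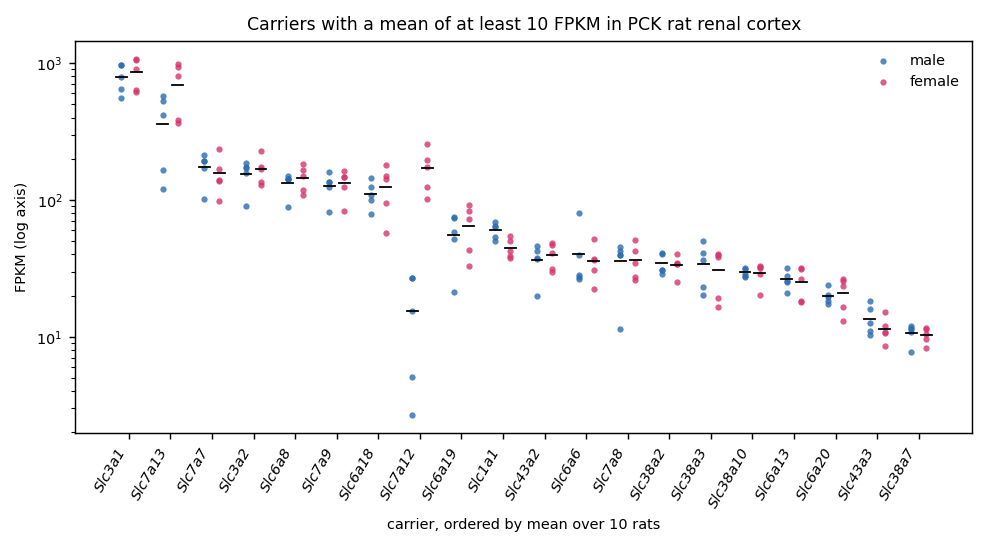
FPKM on a log axis of the 20 members with a mean of at least 10 FPKM, ordered by their mean, with 1 point per rat (blue, 5 males; pink, 5 females) and a line at the mean of each sex. Slc7a12 is the only one of these whose male and female points do not overlap.

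Only 1 member of the 44 tested was called different between the sexes. Slc7a12 rose in females, and no other member passed an adjusted p of 0.05 in either direction (limma on log2(FPKM + 0.1), Benjamini-Hochberg adjustment over all 17631 genes tested). Of all genes tested, 1.26% were called higher and 1.14% lower by this threshold. With a log2 fold change of at least 1 as a second threshold, Slc7a12 was again the 1 member called higher and 0 were lower, where 0.618% of all genes were called higher and 0.698% lower. An unadjusted p under 0.05 was found for 7 members, 4 higher and 3 lower in females, which is about the share of all genes (15.7%). The median log2 fold change of females over males was 0.03 over the 44 members and -0.01 over all genes tested. The absolute log2 fold change was below 0.5 in 39 of the 44.

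**Figure D2:**
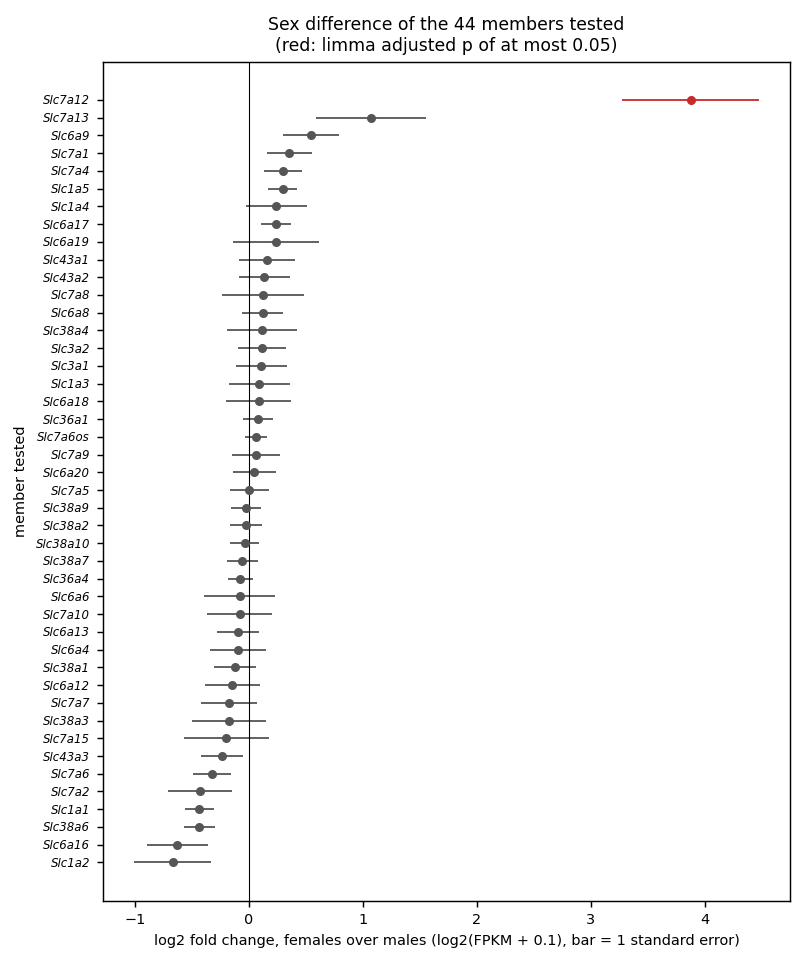
Log2 fold change of females over males on the log2(FPKM + 0.1) scale for the 44 members tested, with bars of 1 standard error. Slc7a12 (3.88, red) is the only member with a limma adjusted p of at most 0.05.

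Slc7a12 encodes a light chain that carries small neutral amino acids when joined to a partner protein. In males its level was 5.07, 15.5, 2.67, 27.1 and 26.8 FPKM, and in females 196, 124, 101.2, 175 and 258 FPKM. Each female was above each male, and the ranges did not overlap. The means were 15.4 ± 11.6 FPKM in the males and 171 ± 62.0 FPKM in the females (SD, n = 5 per sex). The log2 fold change was 3.88 (SE 0.60, limma adjusted p = 0.00596), and the exact permutation test of the difference in means gave p = 0.00794 (two-sided, the smallest this design allows). Between 67 and 7148 reads lay behind each value. The adjusted p stayed between 0.00246 and 0.0217 in the 22 alternative analyses. In the coordinates of the deposited table (Rnor_6.0), the gene lies on the minus strand of chromosome 2, from 88559702 to 88660449.

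The sequence before the start of Slc7a12 is shown because it is the one member called different between the sexes. It covers 250 to 21 bases before the RefSeq start, at chr2:88868124-88868353 of GRCr8, minus strand, written 5′ to 3′. Capitals mark GTTAATTATT and the stretch in which TATAAA, its reverse complement TTTATA and AGAACA overlap.
Slc7a12: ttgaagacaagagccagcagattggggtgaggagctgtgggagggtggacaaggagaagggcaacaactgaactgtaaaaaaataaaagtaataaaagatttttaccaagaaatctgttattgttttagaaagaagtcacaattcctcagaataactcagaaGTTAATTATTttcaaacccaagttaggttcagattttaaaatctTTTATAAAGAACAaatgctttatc

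In all, 7 patterns were searched on both strands of the 250 bases before the start, and 46 of the 62 members had an entry in the RefSeq table. The full 12-letter consensus of HNF1, a transcription factor of the proximal tubule, was searched first. It was not found before Slc7a12, and was found before 1 member, Slc7a15, and 0.0448% of all 33469 promoters. The 10-letter form behind the marked GTTAATTATT was cut from that consensus after the Slc7a12 sequence had been read, and it was found before Slc7a12 and Slc7a15 and in 0.323% of all promoters. AGAACA, the half-site of androgen and glucocorticoid receptors, and TATAAA were also added after that reading, and are common, in 17.5% and 12.9% of all promoters. Before Slc7a12 there was no match to the STAT5 pattern TTCNNNGAA (7.67% of all promoters), the estrogen response element (13 letters, 0.0239%) or the amino acid response core TGATGNAA (3.40%). A match is a description of letters, and binding was not measured.

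Slc7a13, a light chain that pairs with Slc3a1 in the late proximal tubule and carries aspartate, glutamate and cystine, was the second highest member. Its level in males was 164, 419, 120, 576 and 525 FPKM, and in females 803, 384, 366, 933 and 988 FPKM. The ranges overlapped, since females 2 and 3 lay below males 2, 4 and 5. The means were 361 ± 208 and 695 ± 300 FPKM (log2 fold change 1.08, SE 0.48, limma adjusted p = 0.312), and the exact permutation p was 0.0794.

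The rats that were lowest in Slc7a13 were also lowest in Slc7a12 within each sex (males 1 and 3, females 2 and 3). The ratio of Slc7a12 to Slc7a13 was 0.0309, 0.0369, 0.0223, 0.0471 and 0.0510 in males, and 0.245, 0.323, 0.276, 0.188 and 0.261 in females. The ratio was 6.88-fold higher in females on the means and did not overlap between the sexes. This pair was one of 10 ratios chosen after the values were seen, of which 6 did not overlap between the sexes, so separation is not particular to it. The ratio of Slc7a12 was also separate against Slc3a1 (11.2-fold higher in females), Slc6a18 (11.3-fold) and Slc15a2 (9.56-fold). The ratio of Slc7a13 to its partner Slc3a1 was 0.187 to 0.591 in males and 0.599 to 0.916 in females. The ratios are given as a description, with no test.

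**Figure D3:**
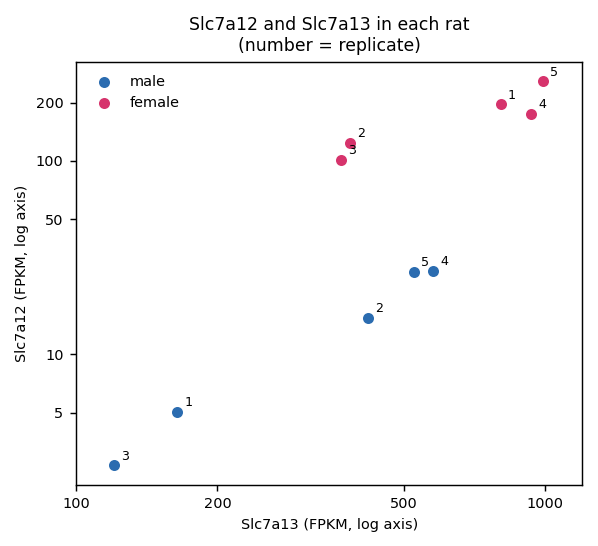
Level of Slc7a12 against Slc7a13 in each rat, both in FPKM on log axes, with blue points for males, pink points for females and the replicate number beside each point. Slc7a12 separates the sexes, with males at 2.67 to 27.1 FPKM and females at 101.2 to 258 FPKM, while the Slc7a13 ranges overlap.

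Neither heavy chain passed the adjusted threshold. Slc3a1, the partner of Slc7a9 and Slc7a13 in the brush border, was at 560, 798, 642, 975 and 973 FPKM in the males and 904, 637, 611, 1044 and 1079 FPKM in the females. The ranges overlapped (789 ± 189 and 855 ± 221 FPKM, log2 fold change 0.11, SE 0.22, limma adjusted p = 0.866). Slc3a2, the partner of the basolateral light chains, was at 171, 173, 188, 157 and 90.6 FPKM in the males and 136, 128, 168, 228 and 174 FPKM in the females. Male 5 was lowest (log2 fold change 0.11, SE 0.21, limma adjusted p = 0.852).

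Among the other light chains, Slc7a9, the cystine and cationic amino acid exchanger of the brush border, had means of 127 ± 28.8 FPKM in the males and 133 ± 31.1 FPKM in the females (log2 fold change 0.06, SE 0.21, limma adjusted p = 0.932). Slc7a7, the basolateral exchanger of cationic and neutral amino acids, was at 194, 193, 212, 172 and 102 FPKM in the males and 140, 98.1, 168, 237 and 139 FPKM in the females. The ranges overlapped (log2 fold change -0.17, SE 0.25, limma adjusted p = 0.795). Against its partner Slc3a2, the ratio of Slc7a7 was 1.10 to 1.13 in males and 0.764 to 1.04 in females, without overlap, as the last of the 6 separate ratios, with no test. Slc7a8, the basolateral exchanger of neutral amino acids, was at 42.1, 39.6, 45.4, 39.7 and 11.4 FPKM in the males and 26.2, 27.2, 42.2, 50.7 and 34.8 FPKM in the females. Male 5 lay far below the other males (log2 fold change 0.13, SE 0.36, limma adjusted p = 0.911). The light chains of system L in growing cells and of system y+L, Slc7a5 and Slc7a6, were low, at 2.47 to 4.43 and 1.58 to 3.64 FPKM over all rats.

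Of 9 neutral amino acid carriers of the Slc6 family, 5 were tested and 0 passed the adjusted threshold in either direction. Slc6a19, the main neutral amino acid carrier of the early brush border, was at 57.9, 75.3, 73.3, 51.8 and 21.3 FPKM in the males and 43, 33, 91.9, 83.6 and 73.1 FPKM in the females. Male 5 was lowest of all rats (log2 fold change 0.23, SE 0.38, limma adjusted p = 0.824). Slc6a18, a neutral amino acid carrier of the later proximal tubule, was at 79.3, 109, 100, 124 and 144 FPKM in the males and 143, 57.6, 94.2, 149 and 179 FPKM in the females. Here male 5 was the highest male (log2 fold change 0.09, SE 0.28, limma adjusted p = 0.926). Slc6a20, the proline carrier, had means of 19.8 ± 2.56 and 21.1 ± 5.91 FPKM (limma adjusted p = 0.942). Tmem27 (also named Cltrn), which brings Slc6a19 to the membrane, did not pass (log2 fold change 0.02, limma adjusted p = 0.974). Slc16a10, a basolateral carrier of aromatic amino acids, did not pass (log2 fold change 0.21, limma adjusted p = 0.780).

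Of the carriers of taurine, GABA, betaine and creatine, 4 of 6 were tested and 0 passed in either direction. Slc6a6, the taurine carrier, was at 27.3, 26.3, 28.2, 79.6 and 39.5 FPKM in the males and 51.5, 22.4, 36.8, 30.9 and 36.4 FPKM in the females. Male 4 was at more than the highest female, and the other males lay within the range of the females (log2 fold change -0.08, SE 0.31, limma adjusted p = 0.936). Without male 4 the log2 fold change was 0.20. Slc6a8, the creatine carrier, was high in all rats, at 88.6 to 150 FPKM in the males and 109 to 182 FPKM in the females.

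Slc1a1, the glutamate and aspartate carrier of the brush border, was the highest of the Slc1 members. It was at 53.5, 63.9, 69.3, 64.7 and 50.3 FPKM in the males and 37.8, 39.1, 42.4, 54.5 and 49.8 FPKM in the females. Females 4 and 5 reached the range of the males or came near it, and the other females lay below it. The means were 60.3 ± 8.04 and 44.7 ± 7.19 FPKM, and the difference missed the threshold (log2 fold change -0.44, SE 0.13, limma adjusted p = 0.112, exact permutation p = 0.0317). It passed with quantile normalization and with scaling to non-mitochondrial reads. Slc1a5, a carrier of glutamine and other neutral amino acids, was at 6.88 to 9.95 FPKM in the males and 8.71 to 13.2 FPKM in the females (log2 fold change 0.30, limma adjusted p = 0.289).

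Of 11 Slc38 members, which carry glutamine and other neutral amino acids or act at the lysosome, 8 were tested and 0 passed in either direction. Slc38a3, the glutamine carrier of the basolateral membrane, was at 20.1, 36.3, 23.3, 41.3 and 50.5 FPKM in the males and 39.9, 16.4, 19.1, 38.1 and 40.3 FPKM in the females (log2 fold change -0.18, SE 0.33, limma adjusted p = 0.851). Slc38a6 was at 3.33 to 5.09 FPKM in the males and 2.76 to 3.93 FPKM in the females (log2 fold change -0.44, SE 0.14, limma adjusted p = 0.140, exact permutation p = 0.0159). Slc38a6 overlaps Trmt5 on the other strand, and the strand setting of the counting is not given, so its level is uncertain. Slc36a1, a proton-coupled carrier of small amino acids, had means of 7.15 ± 1.05 and 7.58 ± 1.09 FPKM (limma adjusted p = 0.822).

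Separate FPKM ranges in the 2 sexes were found for 2 members, Slc7a12 and Slc6a16, and for 5.10% of all genes tested. Slc6a16, an orphan carrier, was at 0.253 ± 0.055 FPKM in the males and 0.13 ± 0.047 FPKM in the females. Only 3 to 13 reads lay behind each of its values, and it did not pass (log2 fold change -0.63, SE 0.27, limma adjusted p = 0.282). Its log2 fold change depended on the pseudocount, at -0.15 with a pseudocount of 1 and -0.95 with 0.01.

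In the remaining groups, 5 of 7 Slc1 members, 3 of 5 cationic amino acid carriers, 2 of 4 Slc36 members, 3 of 3 Slc43 members and 2 of 4 monoamine and orphan carriers of the Slc6 family were tested, and 0 passed the adjusted threshold in either direction. The exact permutation p, not adjusted over the members, was at most 0.05 for 6 members: Slc7a12, Slc6a16, Slc38a6, Slc1a1, Slc1a5 and Slc1a2. Over all genes tested it was at most 0.05 for 14.8%, about the same share. Of the 6, Slc1a2, a glutamate carrier best known from astrocytes, was at 0.061 to 0.378 FPKM in the males and 0.0641 to 0.134 FPKM in the females, and its ranges overlapped. Only 1 to 5 reads lay behind each of its values. Its mean was 0.207 FPKM in males and 0.0836 FPKM in females, so it passed the filter of 0.1 FPKM through the males.

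Larger than most differences between the sexes was the spread between rats. For the 20 members with a mean of at least 10 FPKM, the median coefficient of variation was 24.2% in males and 26.5% in females, and over all 6660 genes at such a mean it was 11% and 13.7%. Male 5 was the lowest male for 10 of the 20 (50%, and 30.9% of the 6660 genes), and female 2 the lowest female for 12 of the 20 (60%, and 42.4% of the genes).

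The members followed the rats in more than one order. In male 5, carriers known from the early proximal tubule (Slc6a19, Slc7a7, Slc7a8, Slc3a2 and Slc7a9) were the lowest of the males. Slc15a1, a peptide carrier of the early segment, was at 1.3 FPKM in male 5 and 6.51 to 9.89 FPKM in the other males. Of the carriers known from the late segment, Slc3a1, Slc7a13, Slc6a18 and Slc38a3 were lowest in males 1 and 3, as given above. Slc1a1, also known from the later segments, did not share this order and was lowest in male 5 (50.3 FPKM, 53.5 to 69.3 FPKM in the other males). Slc15a2, the peptide carrier of the late segment, was at 27.6, 34.2, 25.7, 41.5 and 49.2 FPKM in males. The grouping by segment was made after the values were seen and was not tested. The summed proximal tubule markers were also lowest in male 5 among males and in female 2 among females, and their part in these levels was not tested.

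**Figure D4:**
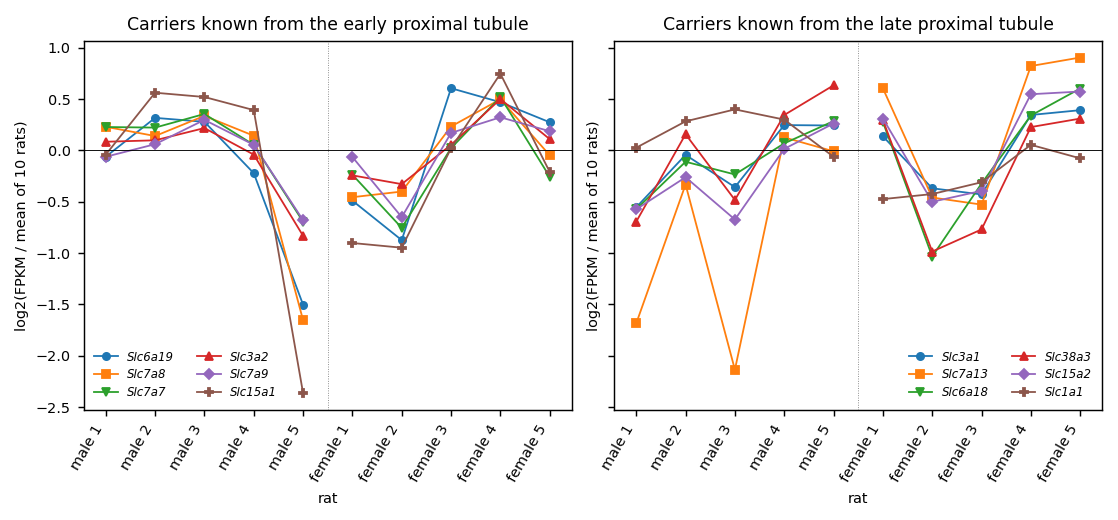
Level in each rat as log2 of FPKM over the mean of the 10 rats, for carriers known from the early (left) and late (right) proximal tubule; lines join the values of 1 gene within a sex and the rats have no order. In male 5 the early carriers are low, with Slc15a1 at 1.3 FPKM, while Slc3a1 is at 973 FPKM; Slc1a1, in the right panel, is also lowest of the males there (50.3 FPKM).

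Amino acid shortage in cells raises a set of genes through the transcription factor ATF4, and carriers are among them. Of 16 genes of the amino acid response and sensing, all were tested, 2 rose in females and 0 fell, where 1.26% of all genes tested were called higher and 1.14% lower. Chac1, which breaks down glutathione, was at 0.619, 0.446, 0.619, 0.371 and 0.383 FPKM in the males and 1.18, 3.26, 2.42, 0.901 and 2.80 FPKM in the females (log2 fold change 1.79, SE 0.34, limma adjusted p = 0.0193), on 9 to 72 reads. Asns, asparagine synthetase, was at 4.73 ± 0.907 FPKM in the males and 9.03 ± 2.43 FPKM in the females (log2 fold change 0.89, SE 0.20, limma adjusted p = 0.0471). Both calls lie near the threshold, since Chac1 did not pass in 6 and Asns in 15 of 22 alternative analyses.

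No member described as responsive to this pathway passed, and no list of such members was fixed, so those given here were chosen after their values were seen. Slc6a9, a glycine carrier, was at 1.69, 1.55, 2.19, 2.63 and 2.41 FPKM in the males and 3.28, 3.13, 3.35, 1.67 and 4.54 FPKM in the females. Female 4 lay among the males and the other females above them (log2 fold change 0.55, SE 0.25, limma adjusted p = 0.314, exact permutation p = 0.0714). Slc7a1, a carrier of cationic amino acids, was at 1.76 to 2.46 FPKM in the males and 2.85, 3.44, 2.63, 1.58 and 3.15 FPKM in the females (log2 fold change 0.35, limma adjusted p = 0.435). Slc1a4, a carrier of neutral amino acids, was at 1.82 to 3.64 FPKM in the males and 3.27, 4.44, 2.51, 1.84 and 4.61 FPKM in the females (log2 fold change 0.24, limma adjusted p = 0.728). Other carriers described as responsive did not pass either, with log2 fold changes of -0.03 for Slc38a2, 0.0046 for Slc7a5 and 0.11 for Slc3a2 (limma adjusted p = 0.951, 0.994 and 0.852). Slc7a11, the cystine and glutamate exchanger, did not pass the filter on low values and was not tested (mean 0.0692 FPKM). Female 4, which lay at one end of the first principal component, was the lowest female for 6 of the 7 carriers plotted and the highest for Slc3a2. Over the whole list of 16 genes this rat was the lowest female for 6, Chac1 and Asns among them, and the highest for 4 (Psat1, Phgdh, Shmt2 and Mtor). It was the lowest female for 31.8% of the 44 members tested and 24.1% of all genes tested.

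**Figure D5:**
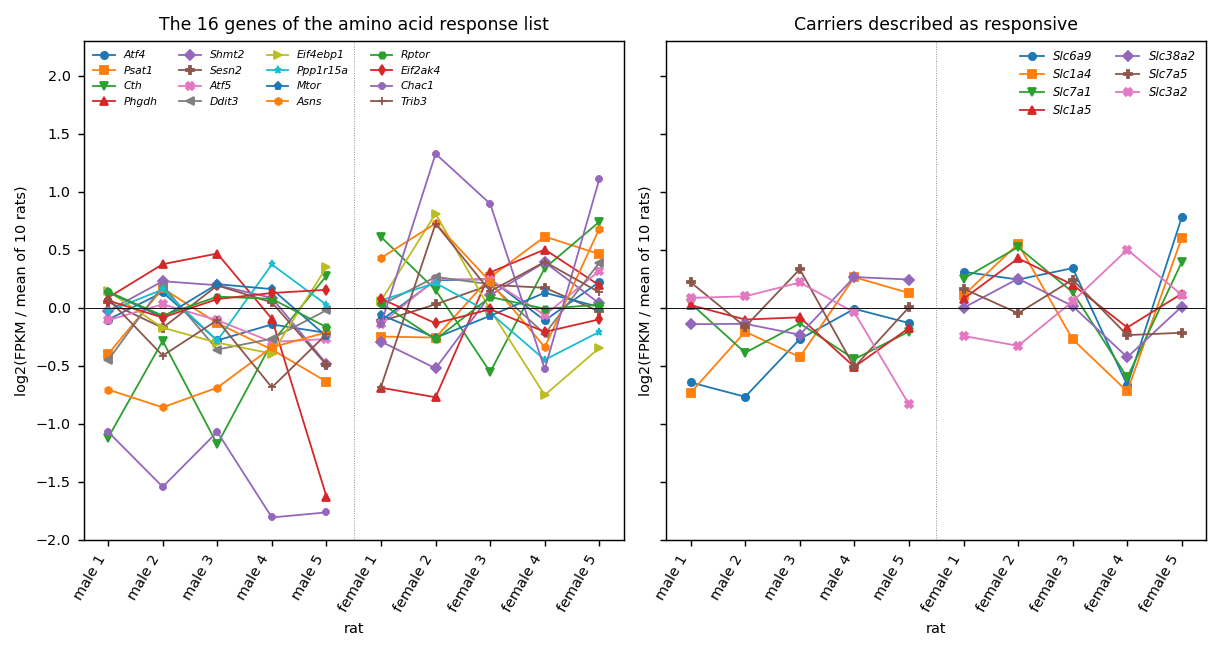
Level in each rat as log2 of FPKM over the mean of the 10 rats for the 16 genes of the amino acid response list (left) and 7 carriers described as responsive and chosen after their values were seen (right); lines join the values of 1 gene within a sex and the rats have no order. The genes of the list do not follow the rats in 1 order, with female 4 the lowest female for 6 of the 16 and the highest for 4.

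The core of the amino acid response element, TGATGNAA, was found before 3 of the 46 members with an entry (6.52%), Slc7a1, Slc1a4 and Slc38a1. It was found in 3.40% of all promoters. It was also found before Chac1, the only gene of the response list that was looked up, so the core is not shown to mark that list. These stretches are shown because they hold the core before 3 carriers and before Chac1, a called gene of the response list, with the core or its reverse complement in capitals, 5′ to 3′ in GRCr8. They lie at chr12:11664442-11664481 (plus strand), chr14:98761774-98761812 (minus), chr7:129681520-129681559 (minus) and chr3:126795948-126795987 (plus), in the order printed.
Slc7a1: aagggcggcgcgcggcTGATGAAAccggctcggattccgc
Slc1a4: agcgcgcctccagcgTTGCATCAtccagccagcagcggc
Slc38a1: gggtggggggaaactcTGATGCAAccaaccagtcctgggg
Chac1: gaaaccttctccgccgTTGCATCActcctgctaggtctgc
The level of Slc38a1, a glutamine carrier, was 2.41 to 3.15 FPKM in the males and 1.76 to 3.33 FPKM in the females, and it did not pass (log2 fold change -0.12, limma adjusted p = 0.814).

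Of 22 other carriers and partners of amino acids and peptides, 16 were tested, 1 rose in females and 0 fell, beside the same 1.26% and 1.14% of all genes tested. Slc25a12, a mitochondrial aspartate and glutamate carrier, was at 16.5 ± 0.619 FPKM in the males and 20.2 ± 1.14 FPKM in the females (log2 fold change 0.29, SE 0.07, limma adjusted p = 0.0485), and did not pass in 16 of 22 alternative analyses. Slc25a13, the more abundant carrier of the same kind, was at 58.0 ± 10.5 FPKM in the males and 45.9 ± 11.4 FPKM in the females and did not pass (log2 fold change -0.35, SE 0.18, limma adjusted p = 0.384).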

How the data were processed

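The RNA came from the renal cortex of PCK rats, 5 of each sex. Per the submitters' processing notes, fastp, HISAT2 2.0.5, StringTie 1.3.3b and featureCounts 1.5.0-p3 were used, and the FPKM that the authors deposited are in 1 table. The strand setting is not given in the sources used here. The FPKM are not counts. They came from whole reads at the deposited gene length (100% of values within 0.02 of a whole read). The library size behind them was 0.905 (female 4) to 1.07 (male 1) times the reads on genes. The median-ratio factor was the same in all libraries, so the deposited values already carry such a scaling. Genes whose mean reached 0.1 FPKM were tested with limma 3.58.1 (R 4.3.3; lmFit, eBayes with trend) on log2(FPKM + 0.1), which understates the change of low genes, with Benjamini-Hochberg adjustment. The exact permutation test was computed directly over all splits of the rats, was two-sided, and was checked against scipy 1.17.1 on simulated cases. The script was tested on simulated data.

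Full statistics were planned for members with an adjusted p of at most 0.05 or separate ranges and for a fixed list of known carriers. Slc7a9, Slc6a20, Slc36a1 and Slc6a16 were given in a shorter form, without the value in each rat. The members, the gene lists and these rules were chosen with earlier results of these data known. Other members named (Slc6a8, Slc6a9, Slc7a1, Slc7a5, Slc7a6, Slc1a4, Slc1a5, Slc1a2, Slc7a11, Slc38a1, Slc38a2, Slc38a6), Slc15a1, Slc15a2, Slc25a13 and the response genes beside Chac1 and Asns were named after their values were seen. Promoter sequences are from RefSeq (GRCr8). Alternatives were pseudocounts of 1 and 0.01, no filter and a filter of 1 FPKM, 2 normalizations, 2 forms of eBayes, the replicate block, limma-voom on whole reads, and the omission of each rat in turn. Scaling to non-mitochondrial reads and leaving out male 5 and female 2 together were chosen after seeing the data.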

Additional observations from a re-analysis of the deposited data

Results flagged for a closer look

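In 7 of 88 groups of 5 rats, 1 rat lay apart from the other 4 by Dixon's test, which chance alone gives in about 1 of 20 groups. Male 5 was lowest among males for Slc6a8 (88.6 FPKM, the others 141 to 150), Slc7a8 (11.4, the others 39.6 to 45.4) and Slc38a7 (7.79, the others 10.9 to 12.0). The same rat was highest for Slc7a6 (3.64 FPKM, the others 2.66 to 2.77) and Slc7a6os (10.8, the others 9.23 to 9.52). Male 4 was highest for Slc6a6 (79.6 FPKM, the others 26.3 to 39.5). Female 3 was highest among females for Slc1a2 (0.134 FPKM, the others 0.0641 to 0.0805), a level of few reads.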

How the results depend on the processing

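Slc7a12 stayed called in all 22 alternatives (log2 fold change 3.38 to 4.30), and the count of members called higher was 1 and of members past both thresholds 1 higher and 0 lower in each. In 1 of the 22, median-ratio scaling, every library was divided by the same factor (1.01). It is therefore no separate check, here or in the counts for Chac1, Asns and Slc25a12. The count called lower was 0, and 1 (Slc1a1) with quantile normalization and 1 with scaling to non-mitochondrial reads. The exact p of Slc1a1 was 0.0159 to 0.0635 when each rat was left out, and that of Slc1a5 was 0.0159 to 0.103. Members near 0 changed sign when 1 rat was left out, none with an adjusted p under 0.05, and their log2 fold changes ranged from -0.23 to 0.20 for Slc6a6, -0.081 to 0.45 for Slc6a19, -0.046 to 0.21 for Slc6a20, -0.072 to 0.34 for Slc6a18, -0.0067 to 0.22 for Slc3a1, -0.094 to 0.22 for Slc7a9, -0.071 to 0.20 for Slc3a2, -0.25 to 0.25 for Slc7a8 and -0.35 to 0.024 for Slc38a3. Their exact p ranged from 0.429 to 0.976 for Slc6a6, 0.198 to 1 for Slc6a20, 0.175 to 0.984 for Slc6a18, 0.333 to 0.960 for Slc7a9, 0.468 to 0.881 for Slc3a2, 0.325 to 0.944 for Slc7a8 and 0.381 to 1 for Slc38a3. Without male 5 and female 2 together the value was 0.10 for Slc6a6, -0.15 for Slc7a8 and 0.18 for Slc38a3, and with quantile normalization -0.020 for Slc7a9; the cause was not tested. The replicate numbers did not pair the rats (correlations of -0.10 to 0.07 between rats of 1 number). With the replicate block the genes called over the whole table fell from 424 to 231, and the log2 fold change of Slc7a12 was 3.88. When 1 rat was left out, 266 (without female 5) to 550 (without female 2) genes were called. The 18 members below the filter were not tested, and whether depth or absent expression lies behind their low values was not tested.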
